A study of Arabidopsis thaliana with 12 samples.

Results

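The genes described here are 38 Arabidopsis loci that encode the linker histone H1, the core histones H2A, H2B, H3 and H4, and the centromeric variant CENH3. They were chosen by name, from a list of locus identifiers, out of the 27444 protein-coding genes (37899 genes in all) that the RefSeq annotation of TAIR10.1 places on the 5 nuclear chromosomes. By class, 23 loci encode replication-coupled histones (8 H4, 5 H3.1, 4 H2A and 6 H2B loci), 12 encode replacement variants (3 H3.3, 3 H2A.Z, 3 H2A.W, 2 H2A.X and 1 CENH3 locus) and 3 encode H1. The annotation itself names 28 of them as histone genes by symbol or synonym. The other 10 (7 H4 loci, 1 H2B locus and 2 H1 loci) carry a locus identifier only, and their class follows common Arabidopsis histone nomenclature.

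DNA from plants of ecotype Col-0 (written Col-O in the labels), collected without their roots, was read by enzymatic methyl-seq. In this method enzymes convert unmethylated cytosines, so that a C still read at a CpG counts as methylated. The labelled libraries comprised 4 from plants treated with SA-CNPs, which are chitosan nanoparticles loaded with salicylic acid, 4 from plants inoculated with the powdery mildew Podosphaera xanthii (Px) and 4 from control plants, with 2 plant samples in each condition. The CpG values analysed here come from 1 table in which libraries had been pooled, and which ones is not given in the labels or the methods. The level of a histone gene is therefore given for 1 pooled sample of unknown condition, with no comparison of SA-CNPs or Px with control and no replicate error.

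Histones package DNA into nucleosomes. Replication-coupled histones are made mostly while DNA is copied and fill the new chromatin, whereas replacement variants can be put into chromatin at other times. H3.3 is associated with transcribed genes, H2A.Z with the starts of genes and with genes that respond to the environment, H2A.W with silent heterochromatin, H2A.X with DNA damage, and CENH3 with the centromere. H1 binds the linker DNA between nucleosomes. CpG methylation inside transcribed genes is common in Arabidopsis, where it lies mostly in the interior of the gene and is copied at each replication by the maintenance methyltransferase MET1.

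In this table the bodies of nearly all histone genes held almost no CpG methylation, and the H2A.Z genes stood apart. A level is the share of methylated calls among all calls at the CpG cytosines of a region. The median body level of the 38 loci was 0.245% (95% interval of the median from the binomial distribution of ranks 0.160 to 0.359%), against 3.01% over 20249 protein-coding genes with 24 to 168 covered CpG cytosines, the range of the histone genes. Of these protein-coding genes, the middle 50% lay between 0.351 and 16.9%. They share only the range of CpG number, with a median of 98 CpG cytosines against 70 in the histone loci. A body level below 1% was found in 34 of the 38 histone loci, against 42.8% of the protein-coding genes of similar CpG number. A body level of at least 10% was found in 1 histone locus, HTA9, against 35.4% of those genes and 40.3% of all 27224 other covered protein-coding genes.

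Histone genes are short and rich in CpG, which the number of CpG cytosines alone does not match. Their median length was 975 bp and their median density 7.59 CpG cytosines per 100 bp, counting both strands, against 1864 bp and 4.998 per 100 bp in the protein-coding genes of similar CpG number. Of the 38 loci, 36 were shorter and 31 were denser than the median of those genes. When the protein-coding genes were limited to the histone genes' range of length as well (16631 genes), their median level was 1.66%, with 30.5% of them at 10% or more and 46.7% below 1%. Each histone gene was also set beside the protein-coding genes within 10% of its own CpG number. In 32 of the 38 loci fewer than 50% of such genes had a lower level, and in 24 loci fewer than 25% had one.

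**Figure D1:**
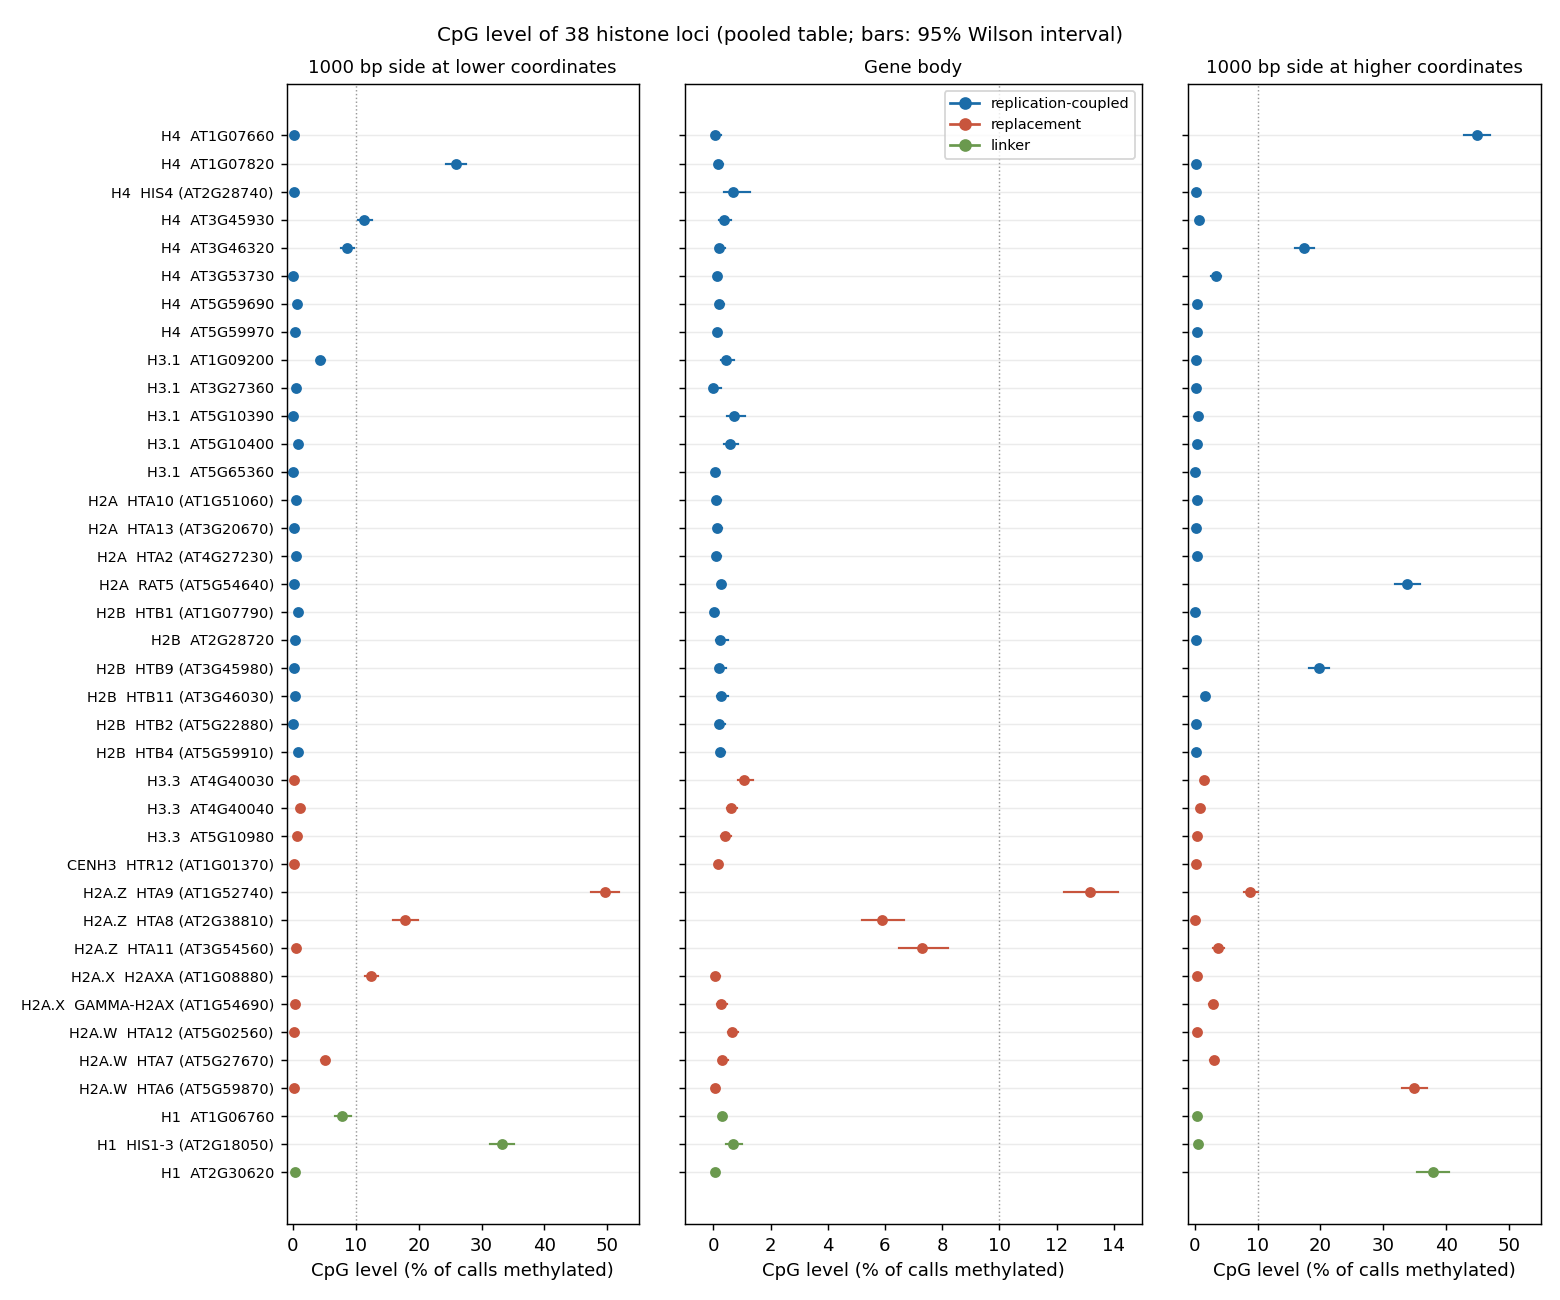
CpG level (percent of calls methylated, horizontal axes) of the 38 histone loci in the 1000 bp at lower coordinates, in the gene body and in the 1000 bp at higher coordinates, with 95% Wilson intervals as bars and a dotted line at 10%. The body axis ends at 15% and the side axes at 55%. The body panel shows HTA9, HTA11 and HTA8 (H2A.Z) at 13.2, 7.30 and 5.89% and every other locus at 1.08% or less, while levels above 10% occur on 1 side of 12 loci.

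Read depth did not leave gaps in these genes. All 2911 CpG cytosines of the 38 bodies were covered, although many histone genes have near-identical copies and the authors kept uniquely mapped reads only. The median number of reads per cytosine lay between 44 in HTB9 and 68 in AT4G40040, against 55 to 61 reads for the middle 50% of the protein-coding genes of similar CpG number. Depth was below that range in 15 histone loci, of which 12 were replication-coupled, and above it in 6, and the part of depth in the levels was not tested. Among the protein-coding genes of similar CpG number, 1.79% had at least 1 cytosine without reads.

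The chloroplast genome, generally taken to carry little CpG methylation, was used as a rough reference for calls read as methylated without being so. Its level was 0.367%. Of the 38 histone bodies, 26 had a lower level than the chloroplast, against 26.2% of the protein-coding genes of similar CpG number. The replication-coupled bodies together had 0.226% (interval 0.196 to 0.260%), so the chloroplast level is not the rate of such calls in nuclear genes. The 95% Wilson interval, which covers counting error only, lay wholly above the chloroplast level in 9 loci. These were HTA8, HTA9, HTA11, the neighbouring H3.3 genes AT4G40030 and AT4G40040, the neighbouring H3.1 genes AT5G10390 and AT5G10400, the H2A.W gene HTA12 and the H1 gene HIS1-3. Of the 23 replication-coupled loci it was 2, and of the 12 replacement loci 6. The share of protein-coding genes with an interval wholly above the chloroplast level was not computed. Whether these counts are many or few thus cannot be said.

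The replication-coupled loci had a median body level of 0.196% (interval 0.114 to 0.256%), against 0.521% (0.160 to 5.89%) in the replacement loci, a difference of -0.33 percentage points between the medians. These intervals describe the spread of levels among the loci of each group and are no test between the groups. Summed over all calls, 191 of 84508 calls (0.226%) were methylated in the replication-coupled bodies, against 1364 of 63673 (2.14%) in the replacement bodies. Without the H2A.Z genes, the replacement bodies had 239 of 51369 calls methylated (0.465%) and a median of 0.313%. The larger share in the replacement group thus came mostly from 3 genes of the H2A.Z class, and genes are not replicates of a condition, so no p-value is given.

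A cytosine was counted as methylated when at least 25% of its reads were methylated, with at least 5 reads, the minimums that the study's methods give. None of the 1530 cytosines in the 23 replication-coupled bodies reached this level, against 24 of the 1113 cytosines in the 12 replacement bodies. The 268 cytosines of the H1 bodies held none. At least 1 methylated cytosine lay in the body of 4 histone loci, the 3 H2A.Z genes and the H3.3 gene AT4G40040, against 56.7% of the protein-coding genes of similar CpG number. In the other 34 bodies the highest level of any single cytosine was 6.12%, in HTA12.

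Among the 38 loci, H2A.Z is encoded by HTA8, HTA9 and HTA11. HTA9 (AT1G52740, chromosome 1, 19645236 to 19646485) had the highest body level of all 38 loci, with 632 of 4797 calls methylated (13.2%, 95% Wilson interval 12.2 to 14.2%). Of 3067 protein-coding genes within 10% of its CpG number, 78.2% had a lower level. All of its methylated cytosines, 12 of 80, lay in 1 stretch of 52 bp at 19646084 to 19646135. These 12 cytosines are the 2 strands of 6 neighbouring CpGs, and their levels ran from 73.0 to 96.7%.

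The stretch in HTA9 was methylated on both strands of each CpG and ended abruptly. From lower to higher coordinates, 54 of 68, 57 of 68, 58 of 66, 51 of 63, 53 of 60 and 47 of 56 reads were methylated on the plus strand. On the minus strand of the same CpGs it was 46 of 63, 54 of 62, 53 of 63, 58 of 60, 52 of 60 and 44 of 54 reads. The other 68 cytosines of the gene had 5 methylated calls among 4054 (0.123%, interval 0.0527 to 0.288%), and the highest of them reached 3.03%. The body of HTA9 was therefore not methylated at a low level throughout, but at a high level in a short part.

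HTA11 (AT3G54560, chromosome 3, 20196140 to 20197726) had 264 of 3616 calls methylated (7.30%, interval 6.50 to 8.19%), and 71.7% of 2236 genes of similar CpG number were lower. Its methylated cytosines, 6 of 72, lay in 53 bp at 20197306 to 20197358 and belong to 3 CpGs. Their plus and minus strands had 27 of 44 and 42 of 68 reads methylated at the CpG of lowest coordinate, 37 of 47 and 46 of 62 at the next, and 47 of 50 and 55 of 61 at the last. The level was lowest at the CpG farthest inside the gene, 61.4 and 61.8% on its strands, and highest at the CpG nearest to the gene's end, 94.0 and 90.2%. The remaining 66 cytosines of the gene had 10 of 3284 calls methylated (0.305%, interval 0.165 to 0.560%).

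HTA8 (AT2G38810, chromosome 2, 16219220 to 16220928) had 229 of 3891 calls methylated (5.89%, interval 5.19 to 6.67%), with 69.9% of 2200 genes of similar CpG number lower. Only 4 of its 70 cytosines were methylated, the 2 strands of 2 CpGs within 11 bp at 16219718 to 16219728. Their plus and minus strands had 50 of 54 and 61 of 69 reads methylated at the first CpG, and 48 of 59 and 60 of 70 at the second. The other 66 cytosines had 10 of 3639 calls methylated (0.275%, interval 0.149 to 0.505%).

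The stretches of HTA9 and HTA11 lay at overlapping distances from the same end by coordinate, and that of HTA8 lay farther in from the opposite end. The methylated cytosines stood 350 to 401 bp inside the higher-coordinate end of HTA9 and 368 to 420 bp inside the higher-coordinate end of HTA11. In HTA8 they stood 498 to 508 bp inside the lower-coordinate end. The gene table used here gives neither strand nor exons, so it was not determined which of these ends is the start of transcription or whether the stretches are exonic, intronic or untranslated. No other annotated gene overlapped any of the 3 stretches, although the body of HTA9 shares 21 bp at its higher end with AT1G52750.

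**Figure D2:**
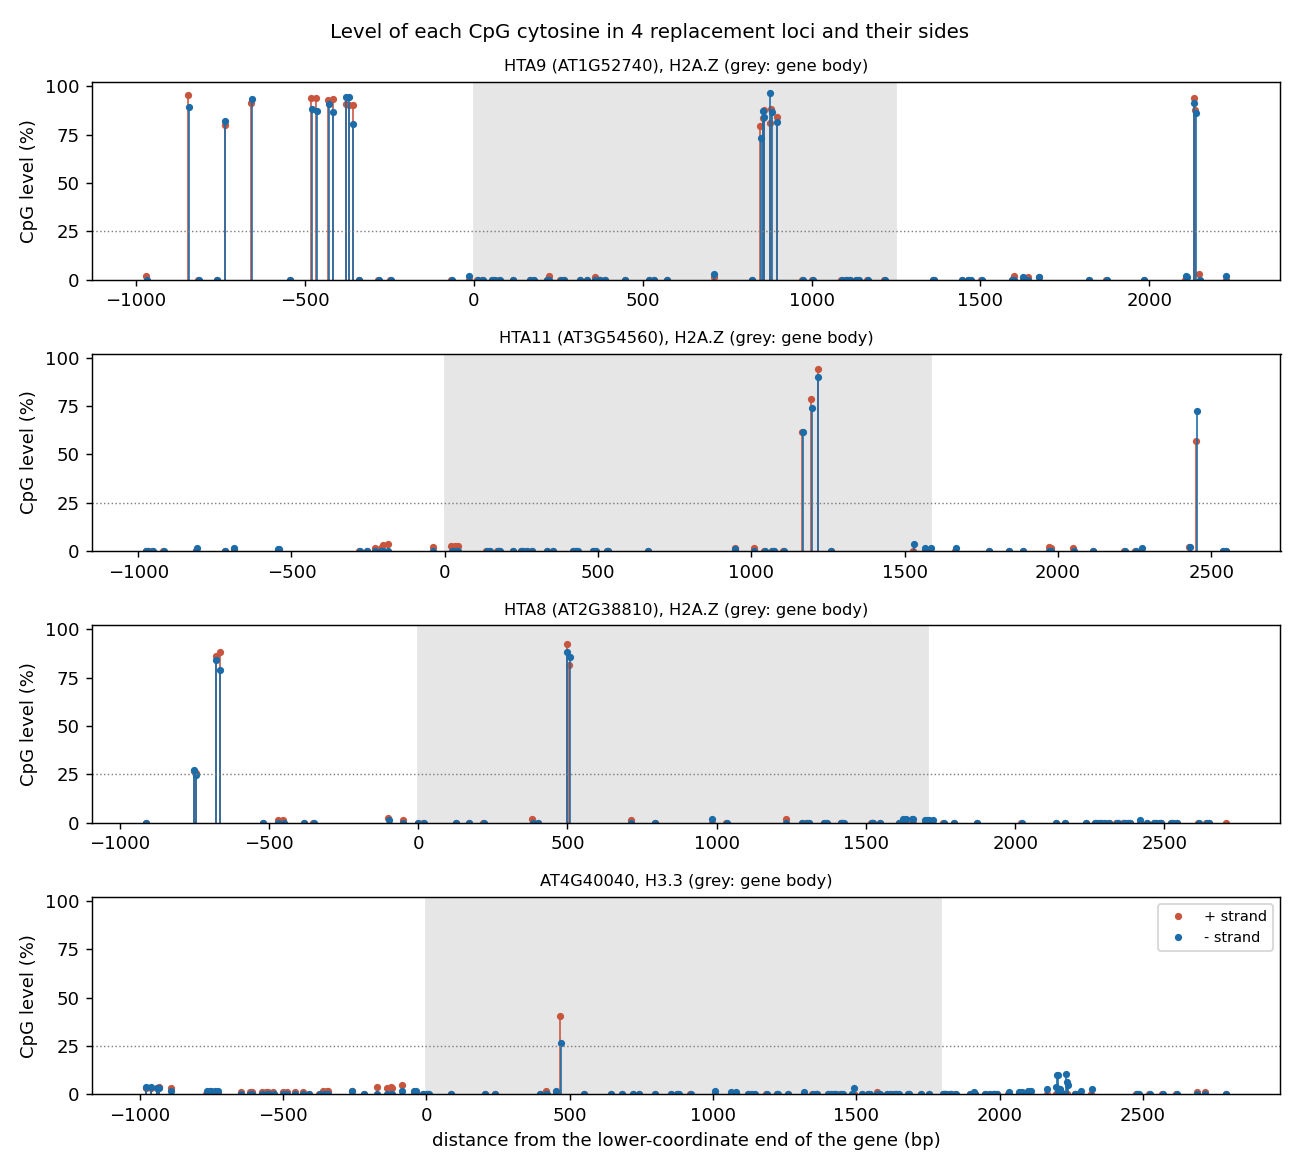
Level (percent of reads methylated) of each CpG cytosine in HTA9, HTA11, HTA8 and AT4G40040 and 1000 bp on either side, against distance in bp from the lower-coordinate end of the gene, with the plus strand in red, the minus strand in blue, the gene body in grey and a dotted line at 25%. In each H2A.Z gene a single group of 12, 6 or 4 cytosines stands above 61% in a body otherwise near 0, and AT4G40040 has 1 CpG at 40.4 and 26.7%.

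H3.3 is encoded by AT4G40030, AT4G40040 and AT5G10980. AT4G40030 (chromosome 4, 18555532 to 18557106) had the highest level outside H2A.Z, 66 of 6102 calls (1.08%, interval 0.851 to 1.37%), without any methylated cytosine, the highest reaching 4.92%. AT4G40040 (chromosome 4, 18557149 to 18558945) had 48 of 7662 calls methylated (0.627%, interval 0.473 to 0.830%). Its only methylated CpG, at 18557616, had 23 of 57 reads methylated on the plus strand and 16 of 60 on the minus strand. This intermediate CpG, 467 bp inside the gene, supplied 39 of the 48 methylated calls, and the other 112 cytosines had 9 of 7545 (0.119%). AT5G10980 (chromosome 5, 3472405 to 3473570) had the lowest level of the class, 21 of 5042 calls (0.417%, interval 0.273 to 0.636%).

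AT4G40030 and AT4G40040 stand 42 bp apart, so each lies in the other's 1000 bp side. The methylated CpG counted in the higher side of AT4G40030 (1.53%) is the same one that lies in the body of AT4G40040. HTR12, which encodes CENH3 (AT1G01370, chromosome 1, 143489 to 146479), was the longest locus and had 12 of 7478 calls methylated (0.160%, interval 0.0918 to 0.280%). No cytosine was methylated in its body or in the 1000 bp on either side, and 4.59% of the 3662 genes of similar CpG number had a lower level.

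Of the H2A.W genes, HTA12 (AT5G02560, chromosome 5, 575225 to 577216) was highest with 64 of 9603 calls methylated (0.666%, interval 0.522 to 0.850%). The annotation places another histone-family gene, AT5G02570, inside it over 522 bp, and the table cannot assign those calls to one or the other. HTA7 (AT5G27670, chromosome 5, 9792509 to 9793560) had 14 of 4471 calls (0.313%, interval 0.187 to 0.525%). HTA6 (AT5G59870, chromosome 5, 24115354 to 24116220) was lowest with 2 of 3475 calls (0.0576%, interval 0.0158 to 0.210%), and 3.27% of the 2200 genes of similar CpG number were lower. H2A.W proteins are found in heavily methylated heterochromatin, but the genes that encode them were themselves nearly free of CpG methylation in the body.

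The H2A.X genes GAMMA-H2AX and H2AXA encode the form that is phosphorylated at DNA breaks. GAMMA-H2AX (AT1G54690, chromosome 1, 20414316 to 20415287) had 9 of 3562 calls methylated (0.253%, interval 0.133 to 0.480%). H2AXA (AT1G08880, chromosome 1, 2846894 to 2848100) had 3 of 3974 calls (0.0755%, interval 0.0257 to 0.222%). Their intervals overlapped.

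The 8 H4 genes encode the partner of H3 in the nucleosome core, and their body levels spanned 0.0748 to 0.677%. AT1G07660 (chromosome 1, 2368833 to 2369735) was lowest, with 2 of 2673 calls methylated (interval 0.0205 to 0.272%). HIS4 (AT2G28740, chromosome 2, 12329345 to 12330059) was highest, with 9 of 1329 calls (interval 0.357 to 1.28%), on only 24 cytosines, the fewest of any locus. Between them stood AT5G59970 (0.124%), AT5G59690 (0.188%) and the 4 H4 genes with methylated neighbours or sides described further on. Of these, AT3G53730 (chromosome 3, 19912385 to 19913515) had 8 of 6351 calls methylated (0.126%, interval 0.0638 to 0.248%) and AT1G07820 (chromosome 1, 2421089 to 2422066) had 7 of 4155 (0.168%, interval 0.0816 to 0.347%). AT3G46320 had 8 of 3841 (0.208%, interval 0.106 to 0.410%) and AT3G45930 (chromosome 3, 16883316 to 16884009) had 12 of 3340 (0.359%, interval 0.206 to 0.627%). These intervals overlapped one another. Summed over the class, 59 of 30246 calls were methylated (0.195%, interval 0.151 to 0.252%).

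The H3.1 genes encode the form of H3 that is laid down behind the replication fork. AT3G27360 (chromosome 3, 10129105 to 10129937) had no methylated call among 1516, for which the 95% Wilson interval reaches up to 0.253%, and the limit of 3 calls that a count of 0 allows is 0.198%. This gene shares 328 bp with SDH2-1. AT5G65360 (chromosome 5, 26119859 to 26120581) had 2 of 3543 calls methylated (0.0564%), and AT1G09200 (chromosome 1, 2971571 to 2972334) had 15 of 3477 (0.431%, interval 0.262 to 0.711%).

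The 2 highest H3.1 genes are neighbours, 577 bp apart. AT5G10390 (chromosome 5, 3268847 to 3269594) had 22 of 3043 calls methylated (0.723%, interval 0.478 to 1.09%) and AT5G10400 (chromosome 5, 3270172 to 3270957) had 23 of 3961 (0.581%, interval 0.387 to 0.870%). No cytosine of AT5G10390 exceeded 4.44% and none of AT5G10400 exceeded 2.27%, so no single cytosine stood out. Whether these calls came from a few reads was not examined. The H3.1 class as a whole had 62 of 15540 calls methylated (0.399%, interval 0.311 to 0.511%), against 135 of 18806 (0.718%, interval 0.607 to 0.849%) in the H3.3 class, from which the methylated CpG of AT4G40040 took 39.

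The canonical H2A genes, which form the dimer with H2B, were uniformly low. RAT5 (AT5G54640, chromosome 5, 22196287 to 22197492), known for its part in Agrobacterium transformation, was highest with 17 of 6394 calls (0.266%, interval 0.166 to 0.425%). HTA10 (AT1G51060, chromosome 1, 18926811 to 18927746) was lowest with 3 of 3299 (0.0909%, interval 0.0309 to 0.267%). HTA2 (AT4G27230) had 0.105% and HTA13 (AT3G20670) 0.114%. The pooled level was 0.165% (interval 0.114 to 0.238%) in these canonical H2A bodies, against 9.14% (8.65 to 9.67%) in the H2A.Z bodies and 0.159% (0.0911 to 0.278%) in the H2A.X bodies.

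Among the H2B genes HTB1 (AT1G07790, chromosome 1, 2412938 to 2413790) had 1 methylated call of 4060 (0.0246%, interval 0.00435 to 0.139%). HTB11 (AT3G46030, chromosome 3, 16913384 to 16914131) was the highest with 8 of 3130 (0.256%, interval 0.130 to 0.504%). HTB9 (AT3G45980) had 5 of 2552 (0.196%, interval 0.0837 to 0.458%), HTB2 (AT5G22880) had 0.201%, AT2G28720 0.239% and HTB4 (AT5G59910) 0.250%. HTB1 was lower than these by its point value, but its interval reached into that of each except HTB4.

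H1 was kept apart from both groups, because linker histones are neither replication-coupled nor replacement variants in the sense used here. HIS1-3 (AT2G18050, chromosome 2, 7845923 to 7847031), the drought-inducible H1, had 24 of 3541 calls methylated (0.678%, interval 0.456 to 1.01%). AT1G06760 (chromosome 1, 2076504 to 2077767) had 22 of 7654 (0.287%, interval 0.190 to 0.435%) and AT2G30620 (chromosome 2, 13044931 to 13046682) had 3 of 4302 (0.0697%, interval 0.0237 to 0.205%). The interval of HIS1-3 did not overlap that of either of the other H1 genes, yet none of its cytosines exceeded 4.05%.

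Outside the genes the picture changed with distance. Within 200 bp of either end, 1 of the 38 histone loci had a methylated cytosine, against 16.5% of the protein-coding genes of similar CpG number. From 201 to 500 bp it was again 1 locus, against 33.3%. From 501 to 1000 bp it was 20 loci (52.6%), against 51.3%. The share of histone loci with methylation was thus far below that of the other genes up to 500 bp from the gene and close to it farther out.

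Summed over calls, the level within 200 bp was 0.698% in the histone loci (interval 0.634 to 0.769%), against 6.82% in the protein-coding genes of similar CpG number. From 201 to 500 bp it was 1.47%, against 11.2%, and from 501 to 1000 bp 7.32%, against 14.4%. To compare genes of like body level, the 34 histone loci with a body level below 1% were set beside the 8673 protein-coding genes of similar CpG number with a body level below 1%. A methylated cytosine lay within 200 bp in 1 of these 34 histone loci (2.94%), against 7.68% of these protein-coding genes. From 201 to 500 bp it was 0 of the 34 histone loci against 24.1% of the genes, and from 501 to 1000 bp 47.1% against 42.4%.

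**Figure D3:**
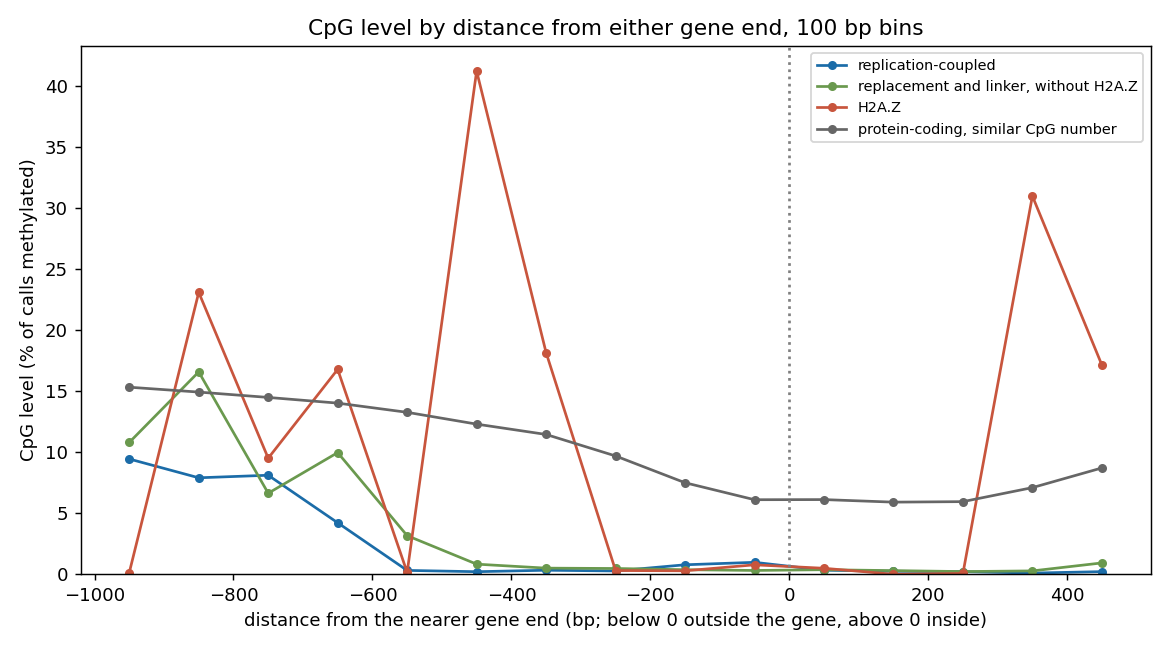
CpG level (percent of calls methylated, vertical axis) in 100 bp bins against distance from the nearer gene end in bp, negative outside and positive inside the gene, both ends combined without orientation. Lines stand for the 23 replication-coupled loci, the 12 replacement and linker loci without H2A.Z, the 3 H2A.Z loci and the 20249 protein-coding genes of similar CpG number. The replication-coupled line stays below 1% in every bin from 500 bp outside the gene inwards, and the H2A.Z peaks rest on HTA9 alone at 300 to 500 bp outside, on 2 of the 3 genes in each bin farther out that has one, and on the 3 stretches inside.

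Over whole sides of 1000 bp, 20 histone loci had a methylated cytosine and 18 had none on either side. A side level of at least 10% was found in 12 of the 38 loci, against 47.3% of the protein-coding genes of similar CpG number. The sides held 207 methylated cytosines, of which 166 (80.2%) lay inside a neighbouring protein-coding gene and 41 in no annotated gene. The nearest methylated cytosine of the 20 loci stood at a median of 761 bp from the histone gene. The side levels thus describe mostly the bodies of neighbours.

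Several H4 genes have methylated cytosines of a neighbouring gene within 1000 bp. The body levels of these neighbours were not computed. The higher side of AT1G07660 had a level of 44.9% (interval 42.9 to 47.0%), from 24 methylated cytosines that all lay in ECA4, beginning 601 bp away. The lower side of AT1G07820 had 25.9% (24.4 to 27.6%), from 19 in ECA1, a gene for an endomembrane calcium pump. AT3G45930 had 11.4% on its lower side, from 10 cytosines in AT3G45920, and AT3G53730 had 3.33% on its higher side, from 2 cytosines in AT3G53740 at 26.0 and 38.5%. The bodies of these H4 genes were at 0.359% or less although the neighbours' cytosines reached 98.3 to 100% in ECA4, ECA1 and AT3G45920.

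AT3G46320 (chromosome 3, 17019785 to 17020428) was the only histone locus with methylated cytosines next to the gene itself. Its higher side had 17.4% (15.9 to 18.9%), from 14 cytosines in MEE39 that begin 641 bp away. Its lower side had 8.61% (7.65 to 9.69%), from 7 methylated cytosines at 17019624 to 17019739, which is 46 to 161 bp from the gene and in no annotated gene. These 7 had levels of 25 to 46.3%, against levels of 75 to 100% in the MEE39 stretch. Depth was thin at the near end of that stretch. The 75% rests on 9 of 12 reads, and the nearest CpG had 7 of 7 and 5 of 5 reads methylated.

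The partial methylation beside AT3G46320 covered 7 neighbouring CpGs. Over their 14 cytosines, 46 to 182 bp from the gene, levels ran from 7.14 to 46.3%, and 207 of 837 calls were methylated (24.7%, interval 21.9 to 27.8%). The plus strand had the higher level at 6 of the 7 CpGs, and 28.9% over all of them, against 20.6% on the minus strand. The CpGs at 261 and 232 bp had no methylated read on either strand. The CpG next to the gene, 2 to 3 bp from its end, had 1 of 53 reads methylated on the plus strand and 5 of 71 on the minus strand. In a pooled table, a level of this kind cannot tell a mixture of methylated and unmethylated cells from a difference between libraries.

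**Figure D4:**
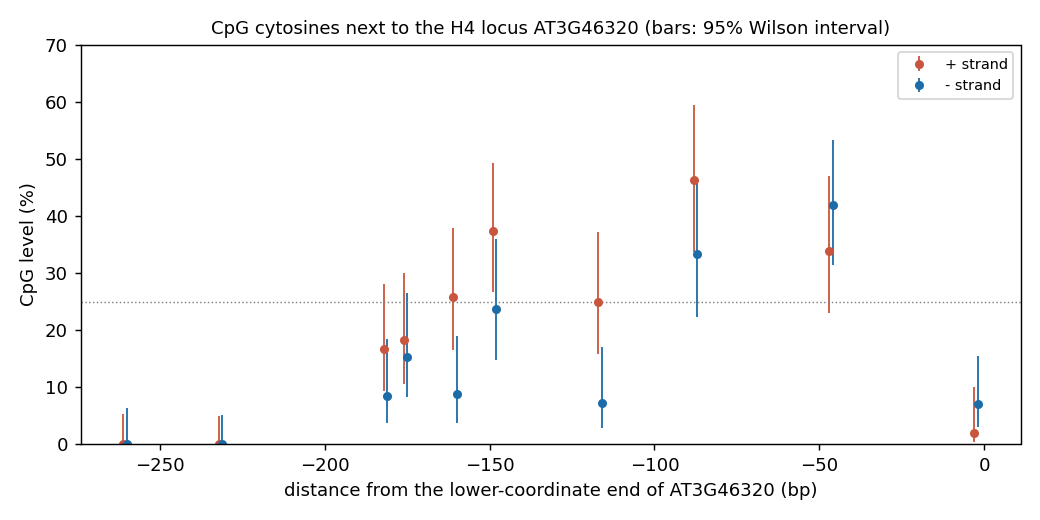
Level (percent of reads methylated, with 95% Wilson intervals) of the CpG cytosines in the 300 bp at the lower-coordinate side of the H4 gene AT3G46320, against distance from the gene in bp, with the plus strand in red, the minus strand in blue and a dotted line at 25%. The 14 cytosines from 182 to 46 bp lie between 7.14 and 46.3%, and those farther out are at 0.

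Of the H3.1 genes, AT1G09200 alone had methylated cytosines within 1000 bp, 4 on its lower side in AT1G09195 at 86.0 to 97.4%, which gave a side level of 4.38%. Of the canonical H2A genes, RAT5 alone had any, 17 on its higher side in Fh5, a formin gene, and the side level was 33.8% (31.8 to 35.8%). Of the H2B genes, HTB9 (chromosome 3, 16897287 to 16898013) had 8 on its higher side in no annotated gene, at 84.7 to 100%, with a side level of 19.8% (18.2 to 21.4%). HTB11 had 4 in RPS15AD, a ribosomal protein gene, at only 25.4 to 40%, with a side level of 1.71%.

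Among the replacement loci, HTA9 had methylation on both sides. Its lower side was the highest side of all, with 49.6% (47.3 to 51.8%), from 20 cytosines in AT1G52730 that begin 357 bp from the gene. Its higher side had 8.87%, from 4 cytosines in AT1G52750. HTA8 had 17.8% (16.0 to 19.9%) on its lower side, from 7 cytosines in AT2G38800, and HTA11 had 3.71% on its higher side, from 2 in AT3G54570. In each H2A.Z gene the stretch in the body was separated from these neighbours by unmethylated CpGs.

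The H2A.W gene HTA6 had 34.9% (32.9 to 37.0%) on its higher side, from 14 cytosines 560 bp away and beyond, in no annotated gene, at 58.6 to 89.7%. HTA7 had 4 methylated cytosines on each side, in DEG14 (lower side, 5.08%) and in RECQSIM (higher side, 3.01%). HTA12 had none. The H2A.X gene H2AXA had 12.5% (11.4 to 13.6%) on its lower side, from 14 cytosines in BON3 at 39.7 to 75.8%, and GAMMA-H2AX had 2.87% on its higher side, from 2 in AT1G54700 at 38.1 and 45.8%. The methylated cytosines in BON3 were thus intermediate throughout, with a median of 50.6%.

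All 3 H1 genes had methylation on 1 side. AT2G30620 had 37.9% (35.4 to 40.5%) on its higher side, from 10 cytosines in AT2G30630. HIS1-3 had 33.2% (31.3 to 35.2%) on its lower side, from 12 cytosines 625 bp away and beyond, at 81.4 to 92.6% and in no annotated gene. AT1G06760 had 7.87% on its lower side, from 3 cytosines in AT1G06750.

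Within 1000 bp no cytosine was methylated in 17 loci in which the body had none either. These are the H4 genes AT5G59970, AT5G59690 and HIS4, the H3.1 genes AT5G65360, AT3G27360, AT5G10390 and AT5G10400, the H2A genes HTA2, HTA10 and HTA13, the H2B genes HTB1, HTB2, HTB4 and AT2G28720, and the replacement genes AT5G10980, HTR12 and HTA12. AT2G28720 and HIS4 stand 1536 bp apart, so their sides overlap in part. The 38 loci also come in wider groups, such as 4 H4 and H2B loci (AT3G45930, HTB9, HTB11 and AT3G46320) within chromosome 3, 16883316 to 17020428.

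Plant histone promoters are known for an octamer that begins with CGCGG. The gene table holds no sequence, but the table of calls gives the bases next to each CpG, from which CGCGG can be read on either strand. It occurred within 300 bp outside at least 1 end of 12 of the 38 histone loci (31.6%), against 8.51% of the protein-coding genes of similar CpG number and 8.56% of all covered ones. By group it was 8 of 23 replication-coupled loci, 3 of 12 replacement loci and 1 of 3 H1 loci, with none at the H2A.Z loci or HTR12. Of these letters alone, which are only part of the octamer, nothing follows about binding of a factor. CGCGG itself holds CpGs, and the number of CpGs outside the genes was not matched in this comparison.

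The CpG cytosines inside these motifs were unmethylated. There were 16 occurrences at the 12 loci, among them those beside HTA10, HTA13, AT1G09200, AT5G59690 and GAMMA-H2AX. Over their 64 cytosines, 6 of 3746 calls were methylated (0.160%, interval 0.0734 to 0.349%), and no occurrence had a level above 0.820%.

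Histone-family loci outside the list resembled the 38. Of 11 further loci, 10 had a body level below 1%, against 42.8% of the protein-coding genes in the CpG range of the 38 loci. The lowest was HTR11 (AT5G65350, chromosome 5, 26119211 to 26119825), an H3-like gene, with 1 of 2931 calls methylated (0.0341%). The exception was HTA4 (AT4G13570, chromosome 4, 7884516 to 7885982), an H2A-family gene that was not assigned here to the canonical class or to a variant. It had 1849 of 2159 calls methylated (85.6%, interval 84.1 to 87.1%). All 38 of its cytosines were methylated, as were its sides, at 85.1 and 80.6%. The methylation of HTA4 thus covered the gene and its surroundings, unlike the short stretches in HTA8, HTA9 and HTA11.

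The histone genes had far lower body levels than the genes for chaperones and exchange factors, which escort histones and place them into chromatin. The median body level was 0.245% in the 38 histone loci, against 18.9% over 18 such genes. Of these 18 genes, 13 were at 10% or more, against 40.3% of all covered protein-coding genes. HIRA, the H3.3 chaperone gene, was highest with 59.2% (58.4 to 60.1%), and NRP2, a NAP1-related chaperone gene for H2A and H2B, was lowest with 0.965% (0.719 to 1.29%). The histone loci were also shorter, with a median of 975 bp against 3172.5 bp in the chaperone and exchange factor genes. Their median number of CpG cytosines was 70 against 117, and neither length nor CpG number was matched between the lists.

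**Figure D5:**
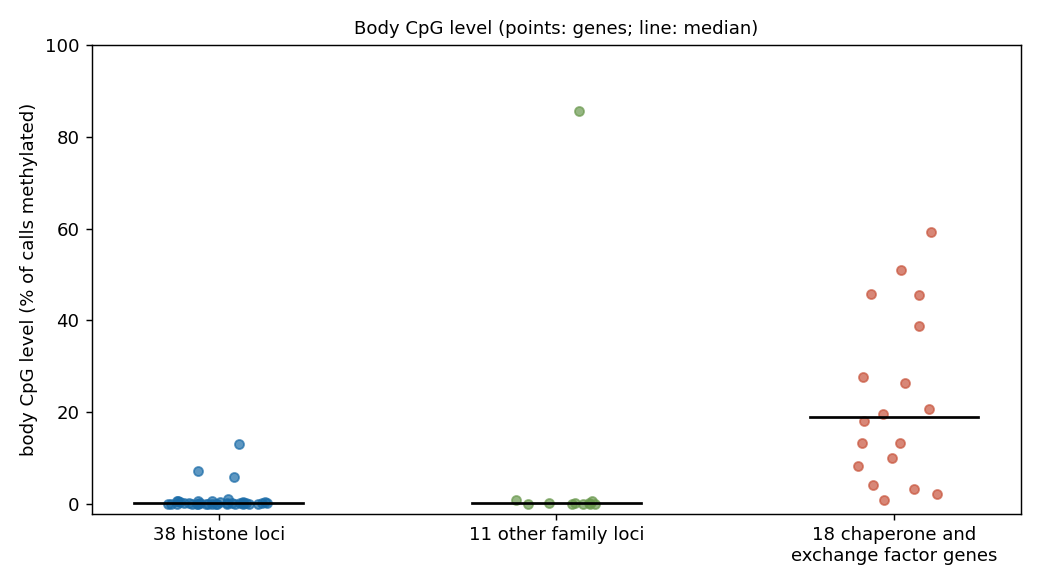
Body CpG level (percent of calls methylated, vertical axis) of the 38 histone loci, 11 other histone-family loci and 18 chaperone and exchange factor genes, one point per gene, with the median as a line. The medians are 0.245, 0.313 and 18.9%, and the single high point among the other family loci is HTA4 at 85.6%.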

How the data were processed

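Per the paper's methods, the authors collected plants with the roots removed and prepared DNA libraries with an enzymatic methyl-seq kit. They used Trimmomatic for read quality and Bismark with bowtie 2 for alignment against TAIR10.1. Reads that mapped uniquely were kept, duplicates were removed and a cytosine report was written. They deposited raw counts of methylated and of unmethylated reads for each CpG cytosine of both strands. These are pooled, not normalized, and the libraries behind them are not given in the sources used here. Unique mapping can thin the reads in genes with near-identical copies.

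From these counts the level of each region was computed as methylated over all calls at cytosines with at least 5 reads, with 95% Wilson intervals. These cover counting error only and treat the calls of a read as independent. The lowest count above 0 was 5 and the median 58 reads per nuclear cytosine. The pooled table allows no test between groups, so none was made. Genes were taken from the RefSeq table of TAIR10.1, without strand, exons or sequence. The search for complete promoter motifs in promoter windows was therefore not made, and in its place CGCGG was read from the table, a choice made after seeing the data. So were the comparison with genes of similar length, the replacement group without H2A.Z, the distance windows of the sides and the genes with a body level below 1%. Members and gene lists were chosen with earlier results of these data known. All 38 loci are named. Full values were given for loci with a methylated cytosine in body or sides and for the highest and lowest of each class, a neighbour was named where a methylated run lies in it, and of the other lists the highest and lowest genes were named.

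Levels were computed with numpy 2.4.6 and pandas 2.3.3 under Python 3.11.15, intervals with scipy 1.17.1 and plots with matplotlib 3.10.9. Only the calculation of a body level was tried on simulated reads, with a tolerance far wider than the levels of most histone bodies. The sides, comparisons and motif counts were not tested in this way. Alternatives tried were a minimum of 10 reads or of 1, removal of the most deeply covered cytosines (beyond the percentile 99.9), the mean of cytosine levels, both strands summed, sides of 500 or 2000 bp, a methylated cytosine at 50%, a call at 5 or 20%, other makeups of the replacement group and other comparison genes.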

Additional observations from a re-analysis of the deposited data

How the results depend on the processing

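Of 88 recomputed values, 72 stayed within their interval or within 1.5 times their count and 16 moved further. Only the difference between the replication-coupled and replacement medians has a direction, and it did not reverse. The median histone body level was 0.245% under every change of minimum reads, coverage cut and strand summing, so such values could hardly move. The replacement median of 3.48% with H3.3 and H2A.Z alone counted as within its interval only because that interval is wide (0.160 to 5.89%). The difference between the replication-coupled and the replacement median was -3.29 percentage points with H3.3 and H2A.Z alone as replacement variants, and -0.12 without H2A.Z, a set chosen after seeing the data. The median of the protein-coding genes was 4.73% over all covered genes and 1.66% at similar CpG number and length, with 40.3 and 30.5% of genes at 10% or more. With a call at 5%, 3 histone loci and 45.2% of the protein-coding genes passed. At 20% it was 0 histone loci and 21.2%. Summing both strands gave 12 methylated CpGs in the bodies and 104 in the sides, by construction about one per pair of cytosines. Sides of 500 bp held 21 methylated cytosines, with 2 loci at 10% or more, and sides of 2000 bp held 868, with 23 loci. Genes within 20% in place of 10% of a locus's CpG number left the median share with a lower level at 19.5%, against 18.6%. A minimum of 1 read changed nothing, since no covered cytosine had fewer than 5. No paired analysis was possible because the libraries are pooled into 1 table. Depth limits single cytosines, and bodies with few CpGs such as HIS4 rest on few calls (1329 in HIS4).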
